A study of Mus musculus with 12 samples.

Results

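Mouse liver RNA from 8 libraries whose descriptions name doxo was taken as 1 side and compared with 4 control libraries, to find transcript differences that both doxo groups share. Members were all genes with a mean of at least 1 TPM (an abundance scaled for gene length and to a fixed total per library) over the 12 libraries, which left 10883 of the 55903 genes in the deposited table. Of these, 9788 were annotated as protein-coding and 146 as lincRNA. E2f3 lay just inside the limit, at 1.0008 TPM, and Ddb2 and Bag2 just outside it, at 0.9992 TPM. The limit was set on the mean of all libraries, so 397 genes with a control mean under 1 TPM passed it through the doxo libraries. In the same way, 39 genes with means under 1 TPM in both doxo groups passed it through the control libraries.

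The study profiled liver in 3 groups of 4 libraries by RNA-seq of total RNA, and its title concerns light-activated removal of senescent cells. The control libraries are titled young control. The second group is described as doxo but titled aged control, with the condition given as aged. The third is described as doxo-KSL0608-Se, which names doxo together with the coded compound KSL0608-Se, and its titles and condition give the treatment with that compound. Doxo is read here as doxorubicin, so each group on the pooled side carries it, and age and doxo cannot be told apart as the difference of the second group from control. The labels of the third group name the compound and no age. Age, doxo and compound therefore cannot be told apart in the pooled difference either. Of strain, sex, age in weeks, dose and animals per library, nothing was given in the sources used here. The p-values below therefore rest on the spread among libraries, which may be technical.

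Doxorubicin is a chemotherapy drug that traps topoisomerase on DNA and causes strand breaks. DNA damage stabilises the transcription factor p53, which raises inhibitors of the cell cycle, genes of apoptosis and repair, and its own negative regulator Mdm2. Cells that stop dividing for good after such damage are called senescent and often hold high levels of p21, the product of Cdkn1a. Liver is also where NRF2 controls genes that detoxify reactive compounds, and where growth hormone, through STAT5, sets a sex-biased programme that includes the major urinary proteins.

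The tissue label was checked against its markers. All 22 hepatocyte markers passed the limit, and their summed level was between 171300 and 235400 TPM in each of the 12 libraries. Control library 1 and doxo library 2 stood apart from the others on the first principal component, which held 54.9% of the variance. They are also at the low end of the number of genes at 1 TPM or more, which ran from 9568 to 11023. The slope of log2(TPM + 1), centred per gene, on log2 gene length was -0.127 in control library 1 and -0.128 in doxo library 2. It was -0.104 in doxo library 4, and the others ran from -0.042 to 0.117. All doxo-KSL0608-Se libraries lay above 0 on the component, at 2.6 to 39.8, as did control libraries 2 and 4 and doxo libraries 1 and 3. Doxo library 2 held 27.6% of its TPM in mitochondrially encoded genes. Sequencing depth cannot be read from TPM and is unknown, so no counting interval is given.

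On the pooled doxo side 3 transcripts rose: Gm45941, a long intergenic noncoding RNA, Phlda3, which p53 induces and which restrains Akt, and Cdkn1a, the cell-cycle inhibitor p21. In limma with Benjamini-Hochberg adjustment over 10883 genes, 3 genes were called higher (0.0276%) and 0 lower (0%), with adjusted p under 0.05 as the threshold. At an unadjusted p under 0.05, limma gave 166 genes higher (1.53%) and 69 lower (0.634%). That split depended on the scaling of the libraries, with 124 higher and 208 lower after median-of-ratios scaling and 143 higher and 171 lower after quantile normalization. The median difference of all genes was 0.08 on the log2(TPM + 1) scale, the scale of every difference below, and it was -0.03 after median-of-ratios scaling. Without control library 1 and doxo library 2, limma called 5 genes higher, the 3 with Aen and Mbl2, and 1 lower, Snurf. Differences on this scale understate the fold of genes with low TPM.

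**Figure D1:**
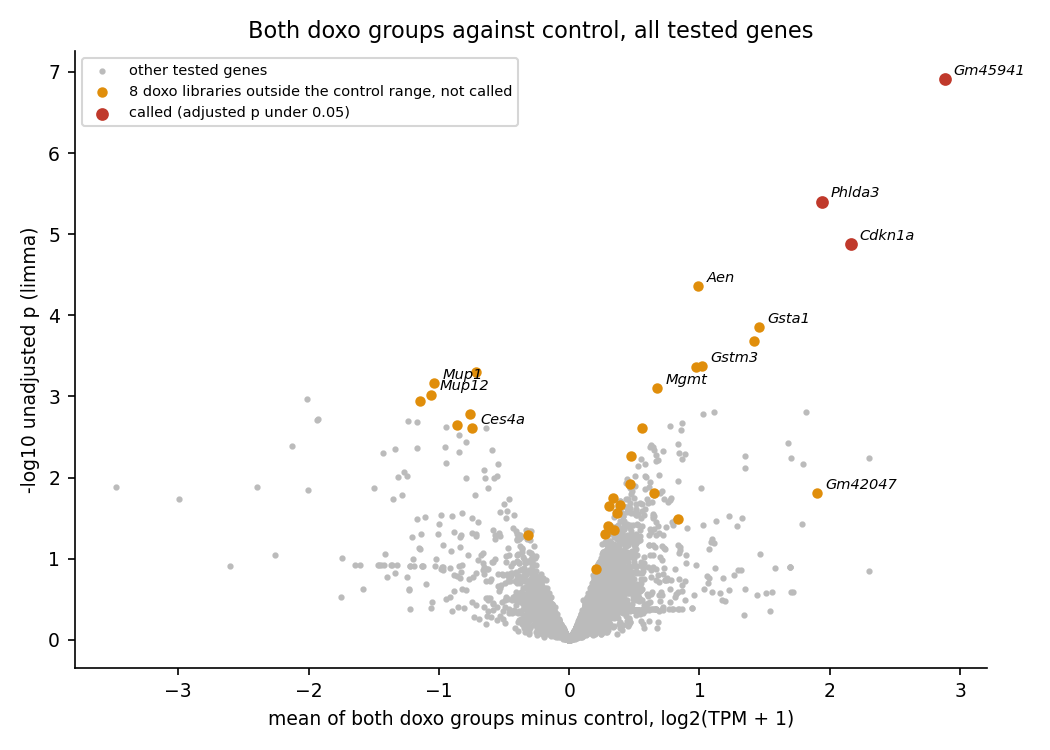
Each point is 1 of the 10883 tested genes, with the difference between the mean of both doxo groups and control on the horizontal axis, in log2(TPM + 1), and -log10 of the unadjusted limma p on the vertical axis. The 3 called genes, in red, are Gm45941, Phlda3 and Cdkn1a, all to the right of 0, and orange marks uncalled genes with all 8 doxo libraries outside the control range.

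Gm45941 is annotated on chromosome 12 from 27946042 to 27982234, on the plus strand of GRCm38, as a lincRNA. Control libraries 1 to 4 held 0.32, 0.33, 0.13 and 0.63 TPM. The doxo libraries held 6.77, 4.20, 12.33 and 6.84 TPM, and the doxo-KSL0608-Se libraries 9.56, 16.03, 16.12 and 6.27 TPM. Each of the 8 doxo libraries lay above each control, and the lowest of them, at 4.20 TPM, was doxo library 2. The mean of the 8 was 9.77 ± 4.58 TPM (SD) against 0.353 ± 0.207 TPM in control, a ratio of means of 27.7. The difference was 2.89 ± 0.28 (SE; limma adjusted p = 0.00132). Gm45941 was also the 1 gene (0.00919%) called in each doxo group against control in the same direction, with 2.59 in doxo (limma adjusted p = 0.0227) and 3.19 in doxo-KSL0608-Se (limma adjusted p = 0.00221). The 2 comparisons share the control libraries, so they are not independent. Each alone called 1 gene higher in doxo (0.00919%), and 2 higher (0.0184%) and 1 lower (0.00919%) in doxo-KSL0608-Se. At an unadjusted p under 0.05, limma gave 130 genes higher (1.19%) and 85 lower (0.781%) in doxo, and 298 higher (2.74%) and 72 lower (0.662%) in doxo-KSL0608-Se, with 39 higher in both (0.358%) and 34 lower in both (0.312%). The call on the pooled side held under each of the 25 alternatives run, with adjusted p from 0.000118 to 0.0279. The call in each group separately was lost (0 genes) without control library 2 or 3, without doxo library 1, 3 or 4, or without doxo-KSL0608-Se library 1.

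Phlda3 is a protein-coding gene on chromosome 1 at positions 135766119 to 135769136. It stood at 0.60, 0.50, 0.29 and 0.85 TPM in control. The doxo libraries held 5.47, 2.84, 5.10 and 5.56 TPM and the doxo-KSL0608-Se libraries 5.80, 7.40, 7.30 and 2.32 TPM. The groups did not overlap, and the lowest values of the doxo side, in doxo library 2 and doxo-KSL0608-Se library 4, were still above the highest control. The means were 5.22 ± 1.84 TPM (SD, 8 libraries) and 0.56 ± 0.23 TPM (SD, 4 libraries), and the difference was 1.94 ± 0.25 (SE; limma adjusted p = 0.0216). Phlda3 and Gm45941 had control means under 1 TPM and passed the limit through the doxo libraries. The Phlda3 call was lost without control library 1, 2 or 3, without doxo library 1, 3 or 4, or without doxo-KSL0608-Se library 1, 2 or 3, with limma adjusted p from 0.0559 without doxo-KSL0608-Se library 1 to 0.195 without control library 3.

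Cdkn1a, also protein-coding, is annotated on chromosome 17 at positions 29090976 to 29100727. Control libraries held 1.89, 8.89, 3.41 and 5.74 TPM. The doxo libraries held 31.73, 12.75, 25.84 and 20.83 TPM and the doxo-KSL0608-Se libraries 24.35, 27.23, 31.29 and 18.21 TPM. No doxo library reached down to the highest control, library 2, and the nearest was doxo library 2. Means were 24.03 ± 6.51 TPM on the doxo side and 4.98 ± 3.05 TPM in control (SD), a ratio of 4.82, and the difference was 2.16 ± 0.32 (SE; limma adjusted p = 0.0486). This call lay close to the threshold. It was kept without control library 2 or doxo library 2 and lost without each of the other 10 libraries, namely control library 1, 3 or 4, doxo library 1, 3 or 4 and doxo-KSL0608-Se library 1, 2, 3 or 4, with limma adjusted p from 0.0592 without doxo-KSL0608-Se library 4 to 0.396 without control library 3.

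**Figure D2:**
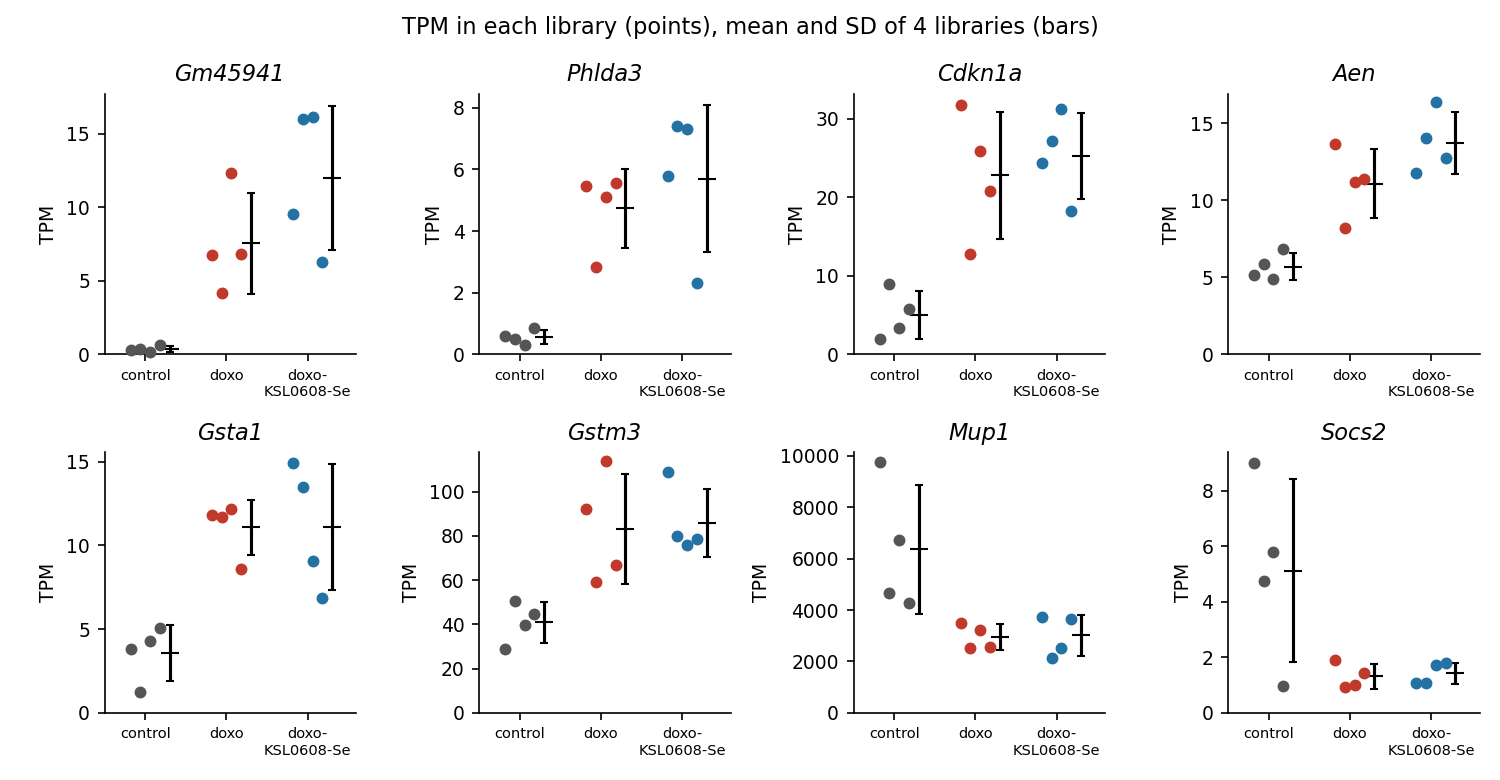
TPM of 8 genes in each library by group, with 1 point per library and a bar for the mean and SD of the 4 libraries of a group. Gm45941, Phlda3, Cdkn1a, Aen, Gsta1 and Gstm3 have all 8 doxo libraries above the 4 controls, Mup1 has all 8 below, and Socs2 overlaps through control library 4 at 0.96 TPM.

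The sequences before the start sites of the called genes, of Aen, the p53 target nearest the threshold, and of 3 further p53 targets are shown because p53 is known to bind DNA at pairs of a 10-base half-site, and a reader can see where such a half-site stands. Bax, Ccng1 and Mdm2 were chosen because their windows hold one. Each run holds 250 bases upstream of the RefSeq start site, 5′ to 3′ on the strand of the gene, on GRCm38.p6, and capitals mark letters that match the p53 half-site motif, which is its own reverse complement and so was searched on both strands at once. Cdkn1a is chr17:29090729-29090978 (plus), Phlda3 chr1:135765835-135766084 (plus), Gm45941 chr12:27945792-27946041 (plus), Aen chr7:78895677-78895926 (plus), Bax chr7:45466899-45467148 (minus), Ccng1 chr11:40755287-40755536 (minus) and Mdm2 chr10:117710759-117711008 (minus).
Cdkn1a: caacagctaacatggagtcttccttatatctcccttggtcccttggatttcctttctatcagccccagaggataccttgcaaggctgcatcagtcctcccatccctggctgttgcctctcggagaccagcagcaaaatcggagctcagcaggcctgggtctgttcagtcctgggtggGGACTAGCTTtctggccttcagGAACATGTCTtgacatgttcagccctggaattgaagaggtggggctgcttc
Phlda3: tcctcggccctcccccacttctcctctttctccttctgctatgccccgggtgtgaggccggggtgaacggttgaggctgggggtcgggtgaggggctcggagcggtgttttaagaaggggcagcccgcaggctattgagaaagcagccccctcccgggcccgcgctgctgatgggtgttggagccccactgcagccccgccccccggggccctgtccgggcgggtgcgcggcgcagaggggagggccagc
Gm45941: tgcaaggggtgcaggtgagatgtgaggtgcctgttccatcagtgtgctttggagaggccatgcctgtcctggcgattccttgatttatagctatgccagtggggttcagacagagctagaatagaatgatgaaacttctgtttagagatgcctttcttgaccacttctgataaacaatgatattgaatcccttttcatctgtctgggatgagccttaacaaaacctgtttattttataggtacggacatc
Aen: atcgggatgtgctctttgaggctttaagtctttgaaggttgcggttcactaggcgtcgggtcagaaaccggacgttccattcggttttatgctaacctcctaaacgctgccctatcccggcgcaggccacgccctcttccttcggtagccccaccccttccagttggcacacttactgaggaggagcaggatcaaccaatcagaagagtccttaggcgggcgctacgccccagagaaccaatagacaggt
Bax: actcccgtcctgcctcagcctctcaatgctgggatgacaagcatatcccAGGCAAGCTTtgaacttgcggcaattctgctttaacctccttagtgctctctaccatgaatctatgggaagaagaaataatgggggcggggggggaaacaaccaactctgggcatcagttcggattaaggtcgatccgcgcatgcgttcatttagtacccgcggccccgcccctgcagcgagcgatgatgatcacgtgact
Ccng1: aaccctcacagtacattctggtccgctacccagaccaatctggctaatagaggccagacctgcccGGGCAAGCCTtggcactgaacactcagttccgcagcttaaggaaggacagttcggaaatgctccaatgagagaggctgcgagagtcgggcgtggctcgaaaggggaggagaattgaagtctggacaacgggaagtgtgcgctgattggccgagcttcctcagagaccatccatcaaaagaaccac
Mdm2: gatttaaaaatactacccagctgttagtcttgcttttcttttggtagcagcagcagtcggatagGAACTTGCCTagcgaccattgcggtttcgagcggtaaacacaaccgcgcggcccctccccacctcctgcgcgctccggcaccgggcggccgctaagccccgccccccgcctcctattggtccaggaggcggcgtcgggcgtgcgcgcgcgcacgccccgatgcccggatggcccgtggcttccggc
The Cdkn1a window held 2 half-sites, with first bases at -73 and -51 from the start site, and Bax, Ccng1 and Mdm2 held 1 each, at -201, -185 and -186. The windows of Phlda3, Gm45941 and Aen held 0, which says only that these letters are not in these windows. Of 32851 RefSeq windows of this length, 7.13% held at least 1 half-site and 0.259% held 2 or more. Of the 25 tested genes of the p53 target list 22 had a window, and 6 of the 22 (27.3%) held a half-site, against 6.13% of the 8109 tested genes with a window. Of the 11 list members higher at an unadjusted p under 0.05, described next, 10 had a window and 4 of these held a half-site, those shown. A match is a description of letters and not of binding.

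The p53 target list held 44 genes, of which 25 passed the limit of 1 TPM and 19 did not. Phlda3 and Cdkn1a were called, and 23 did not pass. At an unadjusted p under 0.05, limma gave 11 of the 25 higher, against 1.53% of all tested genes, and 0 lower. Their median difference was 0.31, against 0.08 over all tested genes, and 24 of the 25 differences were positive, as were 73.9% of all. By group the list's median was 0.204 in doxo and 0.535 in doxo-KSL0608-Se, against -0.075 and 0.227 over all tested genes. Of all tested genes, 35.2% had a positive difference in doxo and 84% in doxo-KSL0608-Se, so the pooled share of 73.9% describes neither group. Without control library 1 and doxo library 2 together, 10 of the 25 were higher at that p. All 8 doxo libraries lay above control for 3 of the 25 (0.211% of all tested genes), Phlda3, Cdkn1a and Aen. Only Phlda3 of the 25 had a control mean under 1 TPM.

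Among effectors of apoptosis, Aen, a p53-induced nuclease, came nearest to the threshold without passing it. It stood at 5.17, 5.88, 4.89 and 6.83 TPM in control, at 13.62, 8.17, 11.15 and 11.35 TPM in doxo and at 11.75, 14.03, 16.35 and 12.74 TPM in doxo-KSL0608-Se. The ranges were apart, and the difference was 0.99 ± 0.16 (SE; limma adjusted p = 0.118). Aen passed without doxo library 2 (limma adjusted p = 0.0187) and, with 4 genes then called higher, under each of the 3 other scalings. Bax, the pore-forming death effector, held 31.56, 21.14, 26.27 and 27.84 TPM in control, 42.11, 49.72, 33.67 and 51.79 TPM in doxo and 46.83, 46.61, 37.31 and 30.91 TPM in doxo-KSL0608-Se. The groups met only where doxo-KSL0608-Se library 4 lay under control library 1, and the difference of 0.64 did not pass (limma adjusted p = 1). Trp53inp1, a p53-induced nuclear protein, had a difference of 1.03 (limma adjusted p = 0.929), with 7 of 8 doxo libraries above the highest control and doxo library 2, at 2.13 TPM, within the control range.

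Among regulators of p53 and of growth, Mdm2, the ubiquitin ligase that degrades p53, held 2.40, 7.25, 3.33 and 5.60 TPM in control, 7.86, 8.20, 6.57 and 4.47 TPM in doxo and 6.43, 8.52, 9.73 and 7.53 TPM in doxo-KSL0608-Se. These ranges overlapped, with 5 of 8 doxo libraries above the highest control, and the difference was 0.64. Ccng1, cyclin G1, ran from 3.73 to 5.68 TPM in control and had a median of 11.5 TPM on the doxo side, from 3.69 TPM in doxo library 2 to 14.48 TPM, with a difference of 0.89. Plk2, a p53-induced kinase, differed by 0.86, Sesn2, a stress-induced inhibitor of mTORC1, by 0.48, and Sulf2, an extracellular sulfatase, by 0.65. From control, Plk2 differed by 0.612 in doxo and 1.111 in doxo-KSL0608-Se. For Sesn2 these were 0.262 and 0.704, and for Sulf2 0.385 and 0.918. Neither Sesn2 nor Sulf2 had an unadjusted p under 0.05 in doxo alone (limma). Gdf15, a secreted stress cytokine, ran from 3.32 to 6.35 TPM in control and from 6.04 to 17.74 TPM on the doxo side, a difference of 0.84. Bax, Mdm2, Ccng1, Plk2, Sesn2, Sulf2 and Gdf15 were named, after their values were seen, as the further list members at an unadjusted p under 0.05, and none passed the adjusted threshold.

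Members of the p53 list under the limit could not be tested and are given by value, chosen after their values were seen. Eda2r, a p53-induced receptor of the tumour necrosis factor family, had means of 0.030, 0.352 and 0.598 TPM in control, doxo and doxo-KSL0608-Se. Tnfrsf10b, a death receptor, had means of 0.078, 0.298 and 0.300 TPM, and Gtse1 of 0.070, 0.200 and 0.292 TPM. For these 3 of the 19 all 8 doxo libraries were above control. The same share over all genes under the limit was not computed, so this count is not read as support. TPM was deposited to 2 decimals, which leaves few steps at such levels.

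Of 18 tested genes of senescence regulators and secreted factors, 0 were called, limma gave 2 higher at an unadjusted p under 0.05 (1.53% of all tested genes), and 0 were lower (0.634% of all). These were Gdf15 and Igfbp5, an insulin-like growth factor binding protein that ran from 0.35 to 0.81 TPM in control and from 0.70 to 1.98 TPM on the doxo side (difference 0.53). Igfbp5 had a control mean under 1 TPM and passed the limit through the doxo libraries. The list's median difference was 0.10, against 0.08 for all tested genes. Bcl2l1, which encodes the survival factor BCL-xL, differed by 0.37 and Hmgb2 by 0.37, neither at an unadjusted p under 0.05. Cell cycle genes gave 0 of 16 tested in either direction at that p, and DNA repair genes 1 of 28. The 1 was Mgmt, which removes alkyl groups from guanine. Mgmt held 4.20, 4.29, 4.62 and 5.90 TPM in control, 7.36, 5.99, 8.76 and 8.73 TPM in doxo and 8.58, 9.40, 9.93 and 7.04 TPM in doxo-KSL0608-Se, without overlap, a difference of 0.68 (limma adjusted p = 0.78).

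Detoxification genes were described next, and none of them was called. Of 32 tested NRF2 targets, 9 were higher at an unadjusted p under 0.05 in limma (1.53% of all tested genes) and 0 lower, with a median of 0.21. Of 21 tested glutathione S-transferase genes, whose products couple glutathione to reactive compounds, 6 were higher and 0 lower, with a median of 0.22. Without control library 1 and doxo library 2 together these counts were 11 and 7, and without doxo library 2 the NRF2 count was 14. With median-of-ratios scaling they were 7 and 3. The lists share 9 tested genes, of which 5 were among those counts. Both medians were lower after median-of-ratios scaling, at 0.09 for each list, while that of all tested genes was -0.03. By group, the NRF2 median was 0.117 in doxo and 0.451 in doxo-KSL0608-Se. The glutathione S-transferase median was 0.115 in doxo and 0.374 in doxo-KSL0608-Se.

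Gsta1, the gene of smallest p among these, held 3.79, 1.22, 4.30 and 5.04 TPM in control. It held 11.84, 11.70, 12.16 and 8.62 TPM in doxo and 14.90, 13.52, 9.09 and 6.84 TPM in doxo-KSL0608-Se. All 8 were above the highest control, and the difference was 1.46 ± 0.27 (SE; limma adjusted p = 0.302). Gstm3 ran from 28.74 to 50.77 TPM in control and from 59.11 to 113.76 TPM on the doxo side, with a difference of 1.02. Gstm1 lay between 1205.4 and 1464.39 TPM in control and between 1620.62 and 4304.62 TPM on the doxo side, with the highest value in doxo library 2, and differed by 0.65. Gstm1, Gstm2 and Gstm3 neighbour each other on chromosome 3 and have similar sequences, so reads may be split between them uncertainly. Nqo1, a quinone reductase, ran from 1.84 to 3.07 TPM in control and from 2.09 to 5.99 TPM on the doxo side (difference 0.61), and Aox1, an aldehyde oxidase, differed by 0.67. Neither passed.

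**Figure D3:**
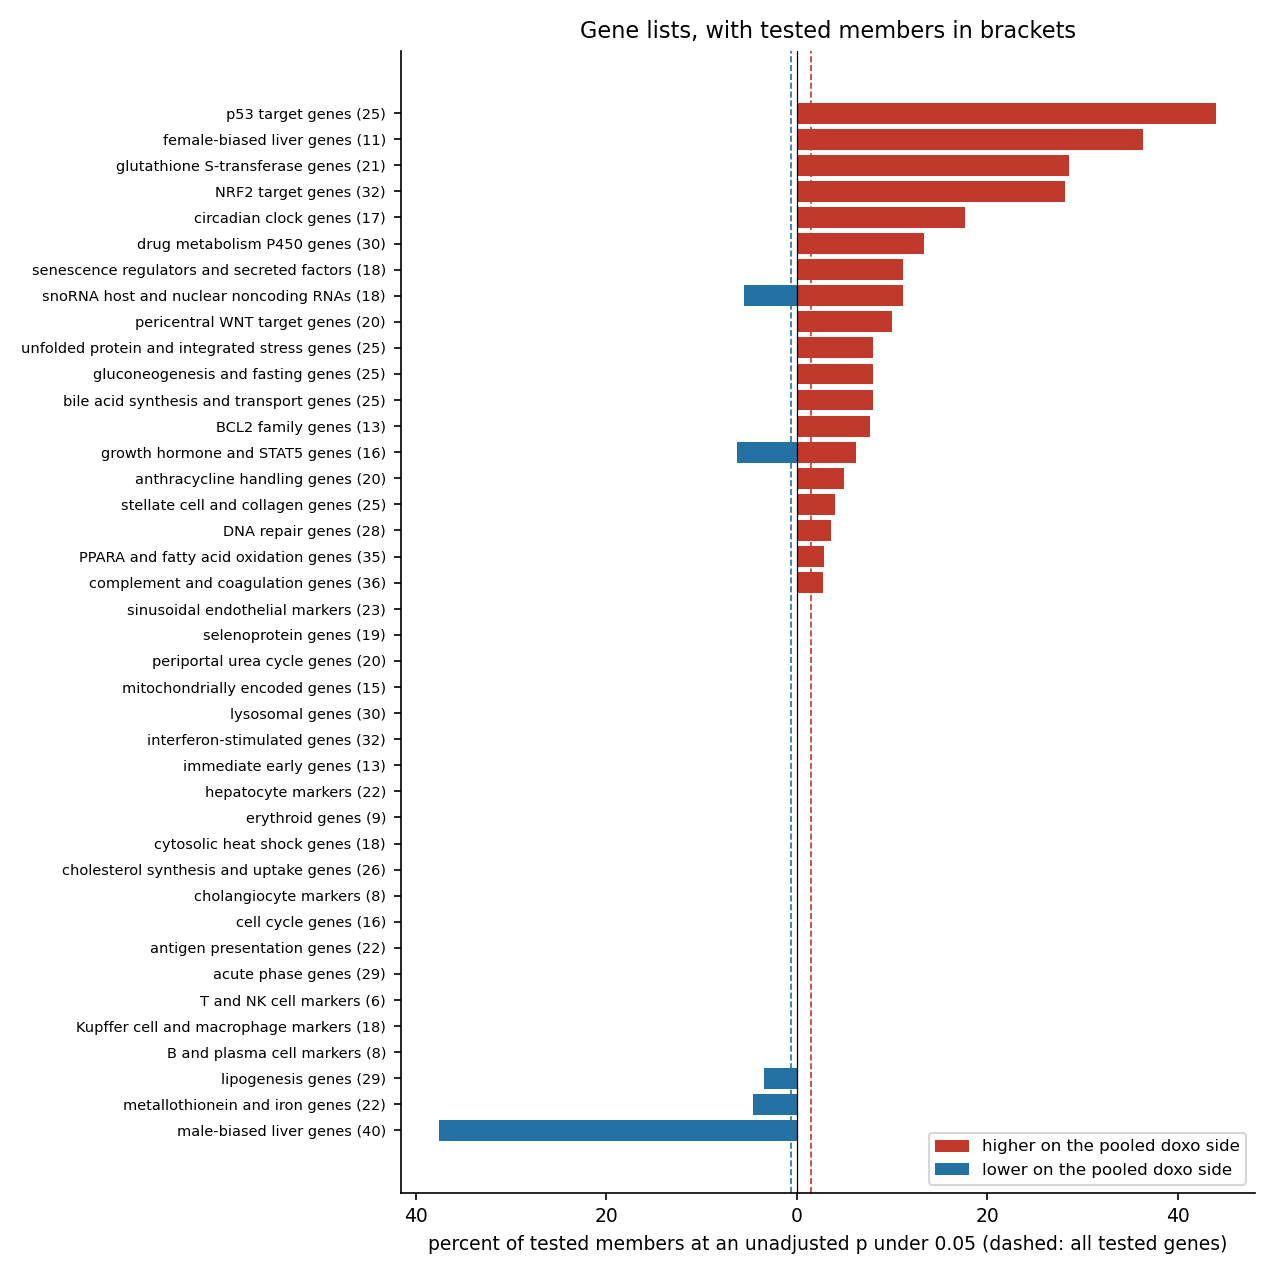
Percent of the tested members of each list (number in brackets) at an unadjusted limma p under 0.05, to the right where the pooled doxo side was higher and to the left where it was lower, for lists with at least 5 tested members. Dashed lines give the same over all tested genes, 1.53% higher and 0.634% lower, and the longest bars are those of the p53 targets (11 of 25) and, to the left, of the male-biased liver genes (15 of 40).

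Male-biased liver genes mostly had negative differences. Of 40 tested, 0 were called, 15 were lower at an unadjusted p under 0.05 in limma (0.634% of all tested genes were lower) and 0 higher. Their median difference was -0.50, and 38 of the 40 were negative. Without control library 1 and doxo library 2 together, 12 were lower at that p. Major urinary proteins, pheromone carriers secreted by liver, made up 20 of the 40 and 10 of the 15, and have nearly identical copies among which reads cannot be placed surely. The 20 other genes had a median of -0.24, with 5 lower at that p. Mup1 held 9770.56, 4673.18, 6740.77 and 4274.27 TPM in control, 3512.44, 2521.65, 3236.58 and 2559.35 TPM in doxo and 3736.45, 2145.85, 2537.12 and 3650.83 TPM in doxo-KSL0608-Se. All 8 were below the lowest control, and the difference of -1.04 ± 0.23 (SE) was not called (limma adjusted p = 0.754). Mup12 (-1.06) and Mup14 (-0.76) had all 8 doxo libraries below control as well. Of the 40, 4 lay so, these 3 Mup genes and Ces4a, given below (0.0735% of all tested genes). As the Mup copies are nearly identical, the 3 are not separate observations. Mup15 differed by -1.24, Mup7 by -0.95 and Mup11 by -0.84. Ces4a, a carboxylesterase in the same list, ran from 1.28 to 3.11 TPM in control and from 0.29 to 1.22 TPM on the doxo side, a difference of -0.75 (limma adjusted p = 0.929). Ces4a had means under 1 TPM in both doxo groups and passed the limit through the control libraries.

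Because the copies cannot be separated well, the 22 Mup genes were also summed in each library. Their share of TPM was 26.5%, 16.1%, 20.5% and 14.96% in control. It was 13.9%, 9.32%, 13.6% and 11% in doxo, and 15.2%, 9.36%, 12.8% and 12.9% in doxo-KSL0608-Se. Control was higher, and the ranges met only at control library 4 and doxo-KSL0608-Se library 1. The means were 12.3% ± 2.15 (SD) over the 8 doxo libraries and 19.5% ± 5.24 (SD) in control, a difference of -7.28 percentage points (two-sided exact permutation test over 495 divisions of the libraries, p = 0.00404, adjusted p = 0.0121 over 3 library measures, smallest possible p 0.00202). Left out in turn, single libraries moved the difference between -8.81 and -4.95 points, the latter without control library 1, and every exact p was at most 0.0182. The difference was -4.53 points without control library 1 and doxo library 2 together, and its direction was the same on a total that leaves out the 50 most abundant and all mitochondrially encoded genes. The share of 4 haemoglobin genes differed by 0.047 points (exact permutation p = 0.192, adjusted p = 0.288) and that of the mitochondrially encoded genes by 2.74 points (exact permutation p = 0.501, adjusted p = 0.501), the latter by 0.591 points without doxo library 2.

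**Figure D4:**
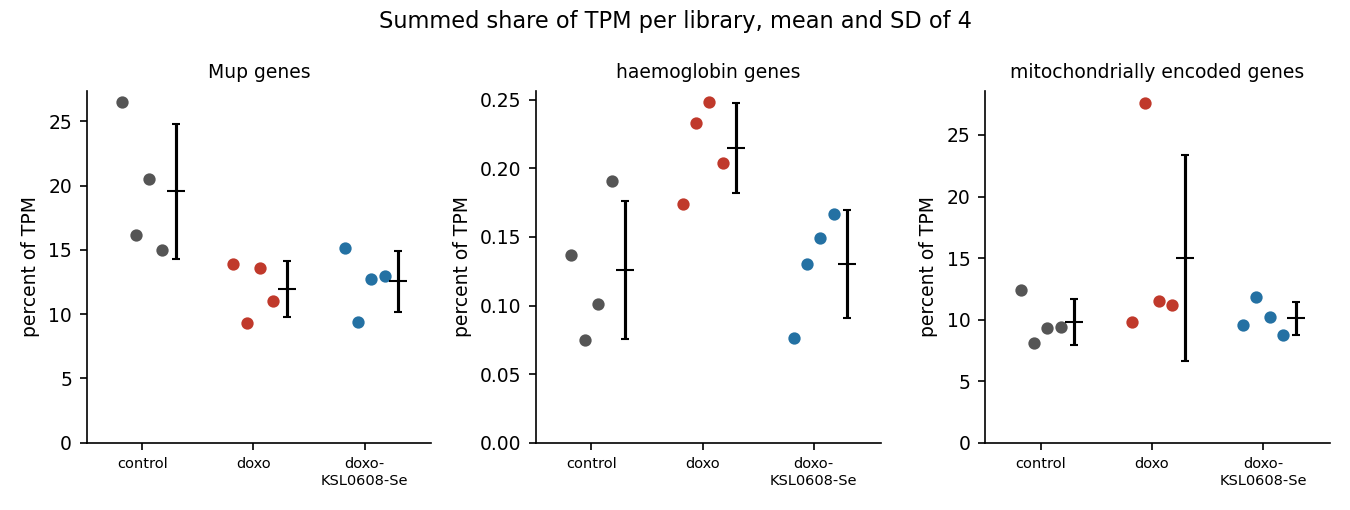
Share of TPM per library in percent for the Mup genes, 4 haemoglobin genes and the mitochondrially encoded genes, with 1 point per library and a bar for the mean and SD of 4. The Mup share is between 14.96% and 26.5% in control and between 9.32% and 15.2% in the 8 doxo libraries, and doxo library 2 stands alone at 27.6% of mitochondrially encoded TPM.

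Female-biased liver genes had 31 members, of which 20 were under the limit. Of the 11 tested, 0 were called and 4 were higher at an unadjusted p under 0.05 in limma (1.53% of all tested genes), with 0 lower and a median of 0.42 against 0.08 over all tested genes. The median was 0.07 with no filter and 0.07 at a mean of at least 5 TPM, where 0 members were higher at that p. The 4 were the flavin monooxygenases Fmo4 (0.51) and Fmo2 (0.42) and the cytochromes Cyp2b9 (0.81) and Cyp2a4 (0.63). From control, Fmo4 differed by 0.236 in doxo and 0.794 in doxo-KSL0608-Se, and Fmo2 by 0.594 and 0.247. For Cyp2b9 these were 0.44 and 1.18, and for Cyp2a4 0.7 and 0.563. None of the 4 had an unadjusted p under 0.05 in both doxo groups (limma). Their control means ran from 0.217 TPM for Cyp2b9 to 1.40 TPM for Fmo4, and their groups overlapped. Cyp2b9 and Cyp2a4 had control means under 1 TPM and passed the limit through the doxo libraries, so the count of 4 is not read as support. Cyp2b9 held 0.05, 0.00, 0.23 and 0.59 TPM in control, 0.72, 0.33, 0.66 and 0.83 TPM in doxo and 0.70, 3.81, 4.01 and 0.32 TPM in doxo-KSL0608-Se. Its highest values were in doxo-KSL0608-Se libraries 2 and 3, and 2 of the 8 doxo libraries lay within the control range. The count of 4 became 0 without control library 1, 2 without control library 2, 3 or 4 or doxo-KSL0608-Se library 3 or 4, 1 without doxo library 4 or doxo-KSL0608-Se library 2, and 0 without control library 1 and doxo library 2 together.

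Of 16 tested genes of growth hormone and STAT5 signalling, 1 was lower at an unadjusted p under 0.05 in limma (0.634% of all tested genes) and 1 higher (1.53% of all). These were Socs2, a suppressor of growth hormone signalling, which was lower, and Igfbp1, which was higher, and neither was called. Socs2 held 9.0, 4.75, 5.81 and 0.96 TPM in control, and all 8 doxo libraries lay between 0.94 and 1.90 TPM. Control library 4 lay within the doxo range, so the groups overlapped (difference -1.17 ± 0.34, SE; limma adjusted p = 1). Without control library 4 Socs2 was among 5 genes called. Cish, which is also induced by STAT5, held 2.74, 13.42, 7.28 and 0.31 TPM in control and from 0.20 to 6.91 TPM on the doxo side (difference -0.83). Igfbp1, an insulin-like growth factor binding protein, ran from 1.34 to 7.04 TPM in control and from 0.97 to 31.71 TPM on the doxo side, with doxo library 2 lowest (difference 1.29). The Igfbp1 difference from control was 0.78 in doxo and 1.81 in doxo-KSL0608-Se. Bcl6, a repressor that competes with STAT5, differed by 0.90 on the pooled side, which the 2 groups did not share evenly. It held 0.78, 6.25, 1.14 and 12.59 TPM in control, 3.27, 2.45, 6.70 and 4.84 TPM in doxo and 12.72, 15.17, 18.04 and 6.38 TPM in doxo-KSL0608-Se. The 3 libraries above the highest control were all doxo-KSL0608-Se, the doxo mean of 4.32 TPM was under the control mean of 5.19 TPM, and the differences from control were 0.20 in doxo and 1.59 in doxo-KSL0608-Se (limma adjusted p of the difference between them = 0.427).

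Cytochromes P450 of drug metabolism gave 4 of 30 tested higher at an unadjusted p under 0.05 in limma (1.53% of all tested genes), 0 called and 0 lower (0.634% of all), with a median of 0.15. This median was -0.035 in doxo and 0.32 in doxo-KSL0608-Se, so its direction was not shared. With the replicate number as a block the count was 0. Cyp2b9, given above, is 1 of the 4. Cyp2c54 lay between 145.83 and 164.58 TPM in control and between 170.37 and 249.28 TPM on the doxo side, without overlap (difference 0.37). Cyp2a5, which also stands in the NRF2 list, ran from 80.62 to 123.44 TPM in control and from 76.05 TPM in doxo library 2 to 241.54 TPM (difference 0.62). Without control library 1 the list's median was -0.04. The count of 4 became 0 without control library 2, 1 without control library 1 or 3 or doxo-KSL0608-Se library 2 or 3, 2 without doxo library 1 or 4, and 2 without control library 1 and doxo library 2 together.

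Clock genes gave 3 of 17 tested higher at an unadjusted p under 0.05 in limma (1.53% of all tested genes), 0 called and 0 lower, with a median of 0.11 that turned to -0.01 after median-of-ratios scaling, to -0.10 without control library 1 and to -0.01 without doxo library 1. The clock median was -0.051 in doxo and 0.341 in doxo-KSL0608-Se, so the groups did not share its direction. Dbp, an output factor of the clock, held 0.64, 0.52, 0.45 and 0.66 TPM in control, 1.27, 0.71, 2.08 and 1.00 TPM in doxo and 1.69, 9.06, 1.91 and 0.97 TPM in doxo-KSL0608-Se. The 8 lay above control, doxo-KSL0608-Se library 2 by far the highest, and the difference was 0.84. Dbp had a control mean under 1 TPM and passed the limit through the doxo libraries. Nr1d1, the repressor REV-ERB alpha, held 4.31, 7.68, 7.83 and 7.76 TPM in control, 8.93, 5.09, 24.50 and 5.56 TPM in doxo and 10.03, 40.41, 17.42 and 21.18 TPM in doxo-KSL0608-Se. All 4 doxo-KSL0608-Se libraries lay above control, while doxo libraries 2 and 4 lay within the control range. The pooled difference of 0.90 was 0.38 in doxo and 1.43 in doxo-KSL0608-Se (limma adjusted p of the difference between them = 0.427). The count of 3 became 0 without control library 1, 2 or 3 or doxo library 3, 1 without doxo library 1 or doxo-KSL0608-Se library 2, 3 or 4, 2 without control library 4 or doxo library 2, and 0 without control library 1 and doxo library 2 together.

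Over all tested genes, 23 (0.211%) had all 8 doxo libraries above control and 8 (0.0735%) had all 8 below, the called genes included. Cplane1, which acts in the assembly of cilia, held 0.44, 1.14, 0.80 and 1.03 TPM in control and from 1.72 to 6.91 TPM on the doxo side, a difference of 1.42 ± 0.28 (SE; limma adjusted p = 0.373). Atp8b5, a lipid flippase, ran from 0.04 to 0.42 TPM in control and from 0.52 to 2.21 TPM on the doxo side (difference 0.97), and both genes had control means under 1 TPM. Endog, a mitochondrial nuclease, ran from 40.2 to 45.39 TPM in control and from 51.94 to 73.87 TPM on the doxo side (difference 0.56). Tbce, a tubulin-folding cofactor (0.47), Kng2, a kininogen (0.39), and Exoc3l2 (0.46) were apart in the same way. Gm42047, a lincRNA, was between 1.31 and 1.39 TPM in all 4 controls and between 2.29 and 99.6 TPM on the doxo side, with the highest value in doxo library 2 (difference 1.90). Endog and the genes after it were chosen after their values were seen, and none passed.

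Mbl2, mannose-binding lectin of the complement system, held 212.84, 294.83, 223.13 and 267.31 TPM in control. It held 651.19, 216.31, 678.82 and 569.34 TPM in doxo and 603.18, 698.23, 607.21 and 475.32 TPM in doxo-KSL0608-Se. All but doxo library 2 were above the highest control, and the difference of 1.11 ± 0.28 (SE; limma adjusted p = 0.929) was called without that library.

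On the lower side, besides the Mup genes, Snurf was listed at 0.00, 4.45, 9.44 and 7.43 TPM in control, at 0 in all 4 doxo libraries and at 0.00, 0.71, 1.32 and 0.28 TPM in doxo-KSL0608-Se. Control library 1, also listed at 0, overlapped with the doxo side, and without it Snurf was called lower. As deposited the difference was -1.93 ± 0.50 (SE; limma adjusted p = 0.929). Snurf shares its locus with Snrpn, so reads may be split between them uncertainly. Snurf had means under 1 TPM in both doxo groups and passed the limit through the control libraries. Moxd1, a monooxygenase-like gene, ran from 1.31 to 26.95 TPM in control and from 0.05 to 3.79 TPM on the doxo side (difference -2.12), with overlap. Alas1, the rate-limiting enzyme of haem synthesis, chosen after its values were seen, held 135.13, 173.53, 192.54 and 57.37 TPM in control and from 19.67 to 96.65 TPM on the doxo side (difference -1.31). Gm16551, a noncoding transcript (-0.71), and Proca1 (-0.31) had all 8 doxo libraries below control and were likewise chosen after their values were seen. None of these passed.

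Of 18 tested snoRNA host and nuclear noncoding RNAs, 2 were higher at an unadjusted p under 0.05 in limma (1.53% of all tested genes), Snhg15 (0.62) and Zfas1 (0.45), and 1 was lower (0.634% of all), Snhg9 (-1.0). Snhg9 was listed at 0 in 3 of the doxo-KSL0608-Se libraries and lay between 4.51 and 13.54 TPM in doxo and between 4.64 and 8.16 TPM in control. Its difference from control was 0.109 in doxo and -2.117 in doxo-KSL0608-Se, so the groups did not share its direction. None was called.

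The 2 doxo groups were compared with each other to see where pooling hides a difference. In limma, 1 gene (0.00919%) was called lower in doxo-KSL0608-Se than in doxo and 0 higher (0%), and 519 genes (4.77%) had an unadjusted p under 0.05, of which 416 (3.82%) were higher and 103 (0.946%) lower. The 1 gene was Gm47551, an antisense transcript on chromosome 13 whose deposited length is 165 bases. It held 68.11, 16.68, 12.41 and 27.45 TPM in control and 14.52, 58.14, 22.60 and 57.34 TPM in doxo. It was listed at 0 in 3 doxo-KSL0608-Se libraries and at 1.47 TPM in library 4, a difference between the doxo groups of -4.74 (limma adjusted p = 0.0127). This call was lost without doxo library 2 or 4 or doxo-KSL0608-Se library 2 (0 genes called). The use of strand in counting was not given in the sources used here. Reads of an antisense gene may therefore be those of its partner. For the 3 genes called on the pooled side, the interval of the difference between the doxo groups (95%) ran from -0.09 to 1.29 for Gm45941, from -0.47 to 0.80 for Phlda3 and from -0.60 to 0.98 for Cdkn1a, and these intervals do not show that the groups are alike. The median over all genes was 0.23 in doxo-KSL0608-Se and -0.08 in doxo, each against the same controls, and 8812 of the 10883 genes had a positive difference between the doxo groups.

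**Figure D5:**
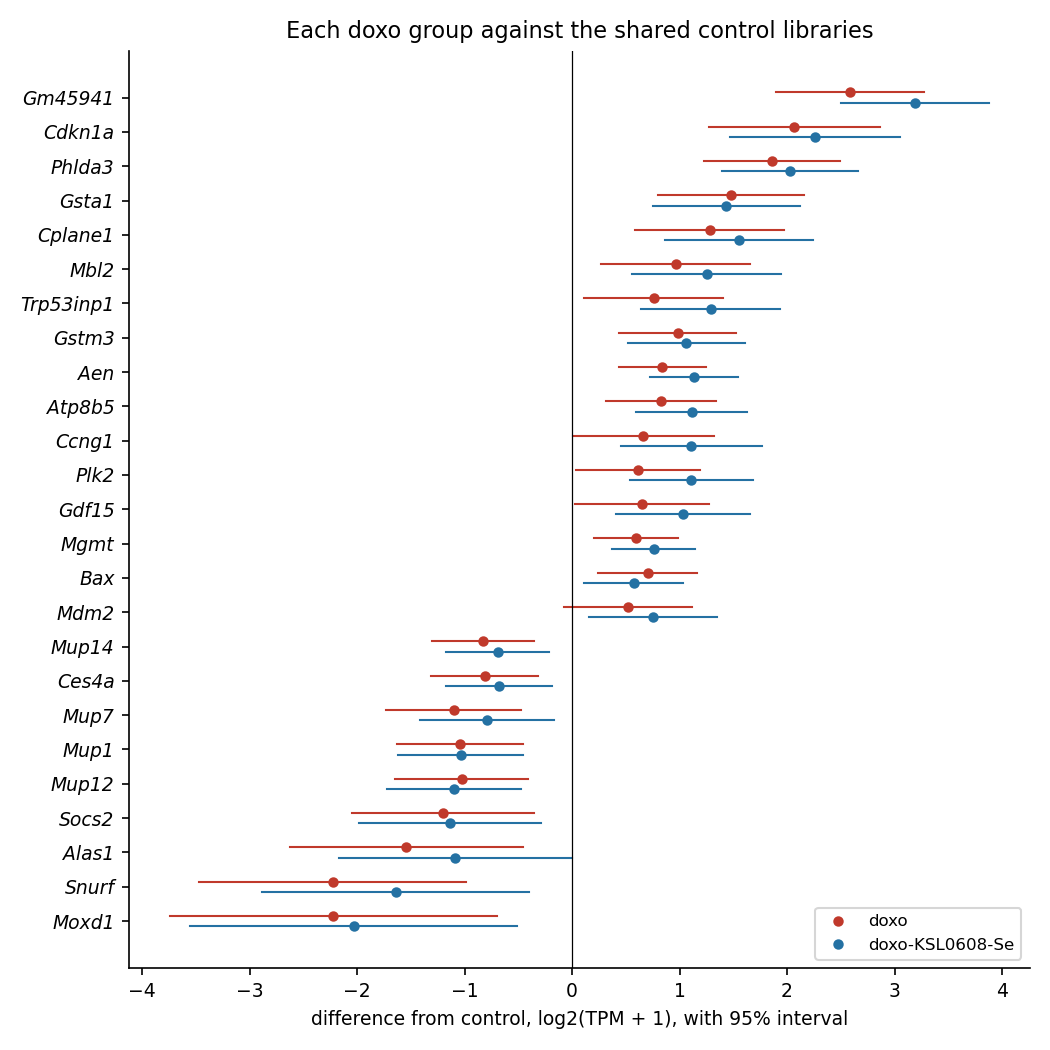
Difference of each doxo group from the shared control libraries for 25 genes, in log2(TPM + 1), with the limma estimate as a point and its 95% interval as a line, doxo in red and doxo-KSL0608-Se in blue. For Gm45941 the points lie at 2.59 and 3.19, for Cdkn1a at 2.07 and 2.26 and for Phlda3 at 1.86 and 2.03.

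Markers of other liver cells did not reach a call. Of 25 tested stellate cell and collagen genes, all 25 had a positive difference, as did 73.9% of all tested genes, with 1 higher at an unadjusted p under 0.05 (1.53% of all) and a median of 0.31, against 0.08 over all. Of the 25, 3 had a control mean under 1 TPM and passed the limit through the doxo libraries, so the count of 25 is not read as support. The stellate median was 0.25 in doxo and 0.311 in doxo-KSL0608-Se. The summed level of these genes was 279.9 to 482.6 TPM in control, 342.9 to 551.5 TPM in doxo and 454.0 to 558.9 TPM in doxo-KSL0608-Se. All 23 tested sinusoidal endothelial markers were positive too, with 0 at that p, a median of 0.23 and sums of 88.1 to 173.5, 90.2 to 203.9 and 134.8 to 231.1 TPM. Of the 23, 1 had a control mean under 1 TPM and passed the limit through the doxo libraries. The endothelial median was -0.005 in doxo and 0.475 in doxo-KSL0608-Se, each against control, so the groups did not share it. Kupffer cell and macrophage markers had a median of -0.18 over 18 tested genes, with 0 at that p in either direction, and summed to between 250.4 and 436.2 TPM in control, 106.0 and 622.1 TPM in doxo and 259.9 and 390.4 TPM in doxo-KSL0608-Se. The Kupffer median was -0.434 in doxo and 0.109 in doxo-KSL0608-Se, so its direction was not shared. The group sums overlapped in each list. In bulk liver, fewer cells of a type and less RNA per cell cannot be told apart, and the part of these markers in the differences above was not tested.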

How the data were processed

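Liver RNA-seq was deposited by the authors as a table of TPM per gene and library, rounded to 2 decimals, with 4 libraries in each of 3 groups. The tools fastp, HISAT and RSEM are named, without version or order, per the submitters' processing notes, while genome build, annotation and strandedness were not given in the sources used here. GENCODE M21 (GRCm38) held 55227 of the 55487 Ensembl identifiers and gave positions and gene classes, and 416 rows were assembled loci without a symbol. No libraries held identical values.

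Log2(TPM + 1) of the 10883 genes with a mean of at least 1 TPM was fitted with limma 3.58.1 in R 4.3.3, with 3 group means and an intensity trend. The main contrast was the mean of both doxo groups minus control, two-sided, with Benjamini-Hochberg adjustment over all tested genes at 0.05. The fit was tested on simulated data. The 44 gene lists (32 pathways, 12 cell types) and the members were chosen with earlier results of these data known. Named genes were called genes (up to 15 per direction with an established symbol and up to 5 with a Gm or Rik name), those of smallest p where fewer than 10 were called, genes called in each doxo group, genes called between the doxo groups (up to 5 per direction), and up to 4 members of smallest p from each described list. Any other gene is marked as chosen after seeing its values. The 3 shares of TPM were tested by exact permutation, adjusted over the 3. Promoter windows came from RefSeq (GRCm38.p6). Alternatives covered pseudocount, filter, scaling, fit, weights, block, length covariate and left-out libraries. The same alternatives for list counts and medians were added after seeing the data. Figures used matplotlib 3.10.9 in Python 3.11.15.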

Additional observations from a re-analysis of the deposited data

Results flagged for a closer look

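Of 204 groups of 4 libraries examined for a single library far from the other 3, 12 (5.9%) held one, where chance alone gives about 1 in 20. Doxo library 2 was the library apart in 4 of them. It was low for Phlda3 (2.84 TPM, others 5.10 to 5.56) and Mbl2 (216.31 TPM, others 569.34 to 678.82), and high for Gstm1 (4304.62 TPM, others 1671.36 to 1899.02) and for the mitochondrially encoded share (27.567% of TPM, others 9.822 to 11.478). Doxo library 4 was low for Gsta1 (8.62 TPM, others 11.70 to 12.16).

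Doxo-KSL0608-Se library 4 was low for Aox1 (30.09 TPM, others 32.82 to 33.34), and high for Cish (5.68 TPM, others 0.20 to 0.44) and Gm47551 (1.47 TPM, others listed at 0). Library 1 of that group was high for Gstm3 (109.11 TPM, others 75.83 to 80.10) and library 3 for Snhg9 (5.22 TPM, others listed at 0). Control library 4 was high for Gstm2 (75.91 TPM, others 62.41 to 63.86) and control library 1 low for Nr1d1 (4.31 TPM, others 7.68 to 7.83). The part of these libraries in the group differences was not tested gene by gene beyond the fits without each library.

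The effect of the 2 doxo groups differed by limma for Gm47551, with -4.741 on the log2 scale between doxo-KSL0608-Se and doxo.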

How the results depend on the processing

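None of the 65 named genes changed sign under any of the 25 alternatives. These genes were chosen from the same libraries by call, small p or values already seen, so the steady sign is not read as support. Of their 1599 values, 1546 stayed on the same side of the threshold, 25 were lost and 28 gained, 16 of the latter with library quality weights. Of the 65 genes, 45 passed neither as deposited nor under any alternative, so the 1546 do not measure how stable the calls were. The 25 lost values were all of Cdkn1a, which passed under 11 of 25 alternatives, and Phlda3, which passed under 13 of 24. Gm45941 passed under all 25. TPM keeps no depth, so precision at low levels is unknown. The cause of the changes below was not tested.

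Genes called higher numbered 3 as deposited and 1 without a filter, where 25019 genes were tested. With quality weights 25 were higher and 8 lower, with 13 outside the control range, 17 called in each doxo group and 77 between the doxo groups. Without control library 1 and doxo library 2 together, 5 were higher, 1 was lower and 6 were outside the range. With the length slope of each library as a covariate, 5 were higher, all 5 outside the range. Genes called outside the range numbered 1 without a filter, and 0 were then called in each group. Genes called in each group numbered 2 with a pseudocount of 0.1 or 0.01, with median-of-ratios scaling or with quantile normalization, and 3 with the total without the 50 most abundant genes. The 1 gene called between the doxo groups became 0 with a pseudocount of 0.01, no filter, any of the 3 scalings, the length covariate or without the 2 libraries together. Leaving out single libraries gave 1 to 5 genes higher, 0 to 2 lower, 1 to 5 outside the range, 0 to 2 in each group and 0 to 1 between the doxo groups. A group of 3 then stood for its condition.

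The Cdkn1a call was also lost with a pseudocount of 0.1 (limma adjusted p = 0.0612) or 0.01 (limma adjusted p = 0.0718) and without a filter (limma adjusted p = 0.165), and the Phlda3 call without a filter (limma adjusted p = 0.127). Phlda3 has no value at a mean of at least 5 TPM.

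Of 12 same-numbered pairs, 2 had a correlation over 0.1, and 2 of 12 libraries correlated best with their own number. Control library 1 and doxo library 2 lie far from the rest and can govern such correlations. The check therefore cannot decide whether replicate numbers pair the libraries. With the replicate number as a block, 1 gene was higher, 1 outside the range, 0 called in each group and 0 between the doxo groups. Under the block the limma adjusted p was 0.0279 for Gm45941, 0.318 for Phlda3 and 0.461 for Cdkn1a.

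The number of list members higher at an unadjusted p under 0.05 ran, leaving out single libraries, from 8 to 12 for p53 targets, 6 to 14 for NRF2 targets, 4 to 9 for glutathione S-transferases, 0 to 5 for female-biased, 0 to 6 for P450 and 0 to 4 for clock genes, and from 12 to 17 lower for male-biased genes. The clock median changed sign to -0.037 at a mean of at least 5 TPM, -0.011 with median-of-ratios scaling, -0.098 without control library 1 and -0.012 without doxo library 1, and the P450 median to -0.039 without control library 1. Without single libraries the 2 medians ran from -0.098 to 0.201 and from -0.039 to 0.284.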
